A study of Mus musculus with 8 samples.

Results

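The 10 genes described here mark the macrophages of the liver. They are Clec4f, Vsig4, Timd4, Cd5l, Marco, Cd163, Adgre1, Csf1r, Cd68 and Lyz2, chosen by name as resident Kupffer cell and general macrophage markers, and they were 10 of the 22504 genes in the deposited table. RNA of 8 liver or tumor samples from Fah-/- mice of the 129S4 background was sequenced in 3 groups. The study treats the samples as individual animals, while the labels do not say so. Every mouse lacked Fah, the last enzyme of tyrosine breakdown, and was protected by the drug NTBC at a standard dose of 7.5 mg/L in the drinking water until injury was induced, so there was no wild-type or uninjured group. C 8w mice (3 samples, 1a, 2a and 3a) had 8 weeks of moderate chronic liver injury (MCLI) on 2.5% of the NTBC dose, and their tissue is labelled liver. C 8w + A 4w mice (3 samples, C096, C097 and C098, the SALI group) had the same 8 weeks and then 4 weeks of severe acute liver injury (SALI) with NTBC removed, also labelled liver. C 12w mice (2 samples, 2e and 3e, the tumors) had 12 weeks of MCLI, and their tissue is labelled tumor, so in this group time and tissue cannot be told apart. The labels give no age or sex.

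Kupffer cells are the macrophages that live inside the liver sinusoids, where they clear particles, microbes and old red blood cells from portal blood. They carry a resident program with the lectin Clec4f and the scavenging receptors Vsig4, Timd4 and Marco, on top of genes that all macrophages share, such as Csf1r, Adgre1, Cd68 and Lyz2. Survival of the lineage depends on signaling through Csf1r, and when resident cells are lost, blood monocytes enter and take on part of the same program. In whole tissue, fewer cells of a type and less RNA per cell cannot be told apart.

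Values are FPKM, the number of fragments divided by gene length and by the mapped total of each library, so that levels of genes of different length can be set side by side. Sums over all genes were between 324735 and 399342 per sample, and 9797 to 10658 genes had an FPKM of at least 1. The number of reads is unknown. From the smallest nonzero values, 1 read was worth 1.02 to 1.06 times as much in 1a as in the 4 other samples of its code series, and 0.966 to 0.979 times as much in C096 as in C097 and C098. C 8w and C 12w samples have codes of the FT series and SALI samples codes of the C series, so this difference and that between SALI and MCLI cannot be told apart. Fah was listed at 13.5 to 16.8 in the 5 FT samples and at 5.02 to 6.36 in the 3 C samples. The extraction text of the labels speaks of another organ, the retina, yet Rcvrn and Crx were listed at 0 in all 8 samples, Sag and Pde6b reached at most 0.0997, Gnat1 was at 1.95 to 3.57, and 7 of 8 hepatocyte markers were kept in the comparison. Alb, the other hepatocyte marker, was listed at 0 in all 5 FT samples and at 12946 to 16949.8 in the C samples, so a value of 0 in this table is reported only as listed.

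The promoters of 8 of the 10 genes were found in the RefSeq table (GRCm38.p6), and those of Adgre1 and Csf1r were not. The letters GAGGAA, on either strand, are the core of the site bound by PU.1, the product of Spi1 and a defining factor of the macrophage lineage. They were searched in the 250 bases before each transcription start. They stood in 4 of the 8 promoters, Vsig4, Marco, Cd5l and Cd68, against 23.3% of all 32851 promoters in the table. These 4 promoters are printed because they hold the match. Capitals mark the match, and each sequence runs 5′ to 3′ on the strand of its gene.
Vsig4: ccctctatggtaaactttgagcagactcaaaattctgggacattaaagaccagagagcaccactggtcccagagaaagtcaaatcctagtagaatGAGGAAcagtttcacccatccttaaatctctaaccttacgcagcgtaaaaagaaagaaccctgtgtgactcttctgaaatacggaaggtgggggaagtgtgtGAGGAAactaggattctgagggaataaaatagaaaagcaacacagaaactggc
Marco: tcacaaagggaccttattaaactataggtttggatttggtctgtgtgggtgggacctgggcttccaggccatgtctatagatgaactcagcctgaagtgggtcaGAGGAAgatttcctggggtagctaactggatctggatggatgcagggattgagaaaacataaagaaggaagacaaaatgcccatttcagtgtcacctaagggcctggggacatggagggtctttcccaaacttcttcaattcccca
Cd5l: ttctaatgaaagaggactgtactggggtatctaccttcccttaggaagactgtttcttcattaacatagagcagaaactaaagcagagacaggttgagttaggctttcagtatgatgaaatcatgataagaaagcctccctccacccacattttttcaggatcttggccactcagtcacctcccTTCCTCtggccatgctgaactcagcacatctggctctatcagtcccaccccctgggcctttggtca
Cd68: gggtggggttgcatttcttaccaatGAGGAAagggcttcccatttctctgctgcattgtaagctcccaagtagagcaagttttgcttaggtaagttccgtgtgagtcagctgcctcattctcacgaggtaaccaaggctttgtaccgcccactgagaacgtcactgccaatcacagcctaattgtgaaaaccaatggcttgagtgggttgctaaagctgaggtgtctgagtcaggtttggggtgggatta
The Vsig4 window was chrX:96293439-96293688 on the minus strand, with matches starting 155 and 53 bases before the start site. The Marco window was chr1:120505025-120505274 on the minus strand, with a match 146 bases before it. The Cd5l window, chr3:87357631-87357880 on the plus strand, held the reverse complement TTCCTC 66 bases before the start, and the Cd68 window, chr11:69666171-69666420 on the minus strand, a match 225 bases before it. Spi1 itself had an FPKM of 1.43, 2.95 and 1.01 in C096, C097 and C098, of 1.32, 1.75 and 1.17 in 1a, 2a and 3a, and of 1.42 and 1.30 in 2e and 3e. A match describes the letters of the promoter and is not a measured binding site.

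All 10 genes reached an FPKM of 1 in 4 or more samples and could be tested. Lyz2 or Cd5l had the highest FPKM of the 10 in each of the 8 samples, and Cd163, Marco or Adgre1 the lowest. Sample C097 stood apart from the other 2 samples of the SALI group in these genes, and the levels below are therefore given in each sample.

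Clec4f encodes a C-type lectin found on Kupffer cells. Its FPKM was 36.7, 36.7 and 33.2 in 1a, 2a and 3a, 25.1, 59.1 and 19.5 in C096, C097 and C098, and 20.2 and 10.8 in 2e and 3e. The mean of C 8w was 35.6 ± 2.03 (SD, n = 3), that of the SALI group 34.6 ± 21.4 (SD, n = 3) and that of the tumors 15.5 ± 6.64 (SD, n = 2). Both tumors lay below all 3 C 8w livers, whereas the SALI samples fell on both sides of C 8w. Vsig4, a complement receptor that binds C3 fragments, had an FPKM of 14.2, 14.5 and 14.3 in 1a, 2a and 3a, 15.3, 34.1 and 12.5 in C096, C097 and C098, and 11.6 and 6.31 in 2e and 3e. Its mean was 14.3 ± 0.159 (SD, n = 3) in the C 8w livers, 20.6 ± 11.7 (SD, n = 3) after SALI and 8.94 ± 3.72 (SD, n = 2) in the tumors. The 3 C 8w livers were almost equal, and the 2 tumors were the lowest of the 8 samples.

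Timd4 encodes a receptor for phosphatidylserine, the signal by which dying cells are taken up. It was at 3.81, 5.79 and 3.97 in 1a, 2a and 3a, 2.74, 12.1 and 2.34 in C096, C097 and C098, and 3.94 and 2.38 in 2e and 3e, and all 3 groups overlapped. Cd5l, a secreted scavenger protein of macrophages, was at 46.5, 64.9 and 51.5 in the C 8w samples, 30.2, 114 and 31.98 in C096, C097 and C098, and 48.5 and 27.5 in 2e and 3e. C096 and C098 lay below every C 8w sample for both genes, and C097 above every one.

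Marco is a scavenger receptor for bacteria and particles. Its FPKM was 0.986, 4.33 and 1.06 in 1a, 2a and 3a, 16.5, 48.8 and 1.44 in C096, C097 and C098, and 11.9 and 2.0 in 2e and 3e. Within the SALI group the highest sample was 33.9 times the lowest, the widest spread of the 10 genes in that group. Marco was also the gene with the widest spread within C 8w (4.39 times) and within the tumors (5.93 times), so its group means of 2.12, 22.2 and 6.93 (SD 1.91, 24.2 and 6.97) in C 8w, the SALI group and C 12w are weak descriptions of the samples.

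Cd163 is the receptor that takes up hemoglobin bound to haptoglobin. It was at 2.68, 3.10 and 3.34 in 1a, 2a and 3a, at 4.80, 7.98 and 3.51 in C096, C097 and C098, and at 1.41 and 0.403 in 2e and 3e. The mean was 5.43 ± 2.30 (SD, n = 3) after SALI, 3.04 ± 0.335 (SD, n = 3) in the C 8w livers and 0.907 ± 0.712 (SD, n = 2) in the tumors. All 3 groups were separate, with SALI samples highest and tumors lowest. No other gene of the 10 had 3 separate groups.

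Adgre1 encodes the F4/80 antigen. It was at 4.84, 8.12 and 5.16 in 1a, 2a and 3a, 1.87, 8.16 and 1.97 in C096, C097 and C098, and 4.32 and 4.68 in 2e and 3e. C096 and C098 were the lowest of the 8 samples, and C097 was level with 2a. Csf1r, the receptor for Csf1 and Il34, was at 10.4, 12.4 and 10.2 in the C 8w samples, 6.41, 20.3 and 5.68 in C096, C097 and C098, and 8.91 and 12.2 in 2e and 3e. Its group means of 11.02, 10.8 and 10.6 (SD 1.21, 8.25 and 2.35) in C 8w, the SALI group and C 12w were close together, although C096 and C098 were below and C097 above each of the 5 other samples.

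Cd68 encodes a membrane protein of lysosomes and endosomes that is abundant in phagocytes. Its FPKM was 6.41, 7.02 and 7.36 in 1a, 2a and 3a, 9.56, 11.6 and 5.79 in C096, C097 and C098, and 12.5 and 7.40 in 2e and 3e. Lyz2, the lysozyme of macrophages and neutrophils, was at 37.2, 40.4 and 50.5 in 1a, 2a and 3a, 31.6, 142 and 44.6 in C096, C097 and C098, and 58.0 and 65.8 in 2e and 3e. For both genes the 2 tumors lay above all 3 C 8w livers, by a small margin for Cd68 in 3e, which is the opposite order to Clec4f, Vsig4 and Cd163. Lyz2 shared 15.4% of its 50-base transcript windows with other annotated genes and Csf1r 14.3%, against at most 0.109% for the other 8 genes, so reads of these 2 could have been divided between copies. Lyz1, the intestinal copy of lysozyme, was at 0.0218 to 0.387 in all samples.

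**Figure D1:**
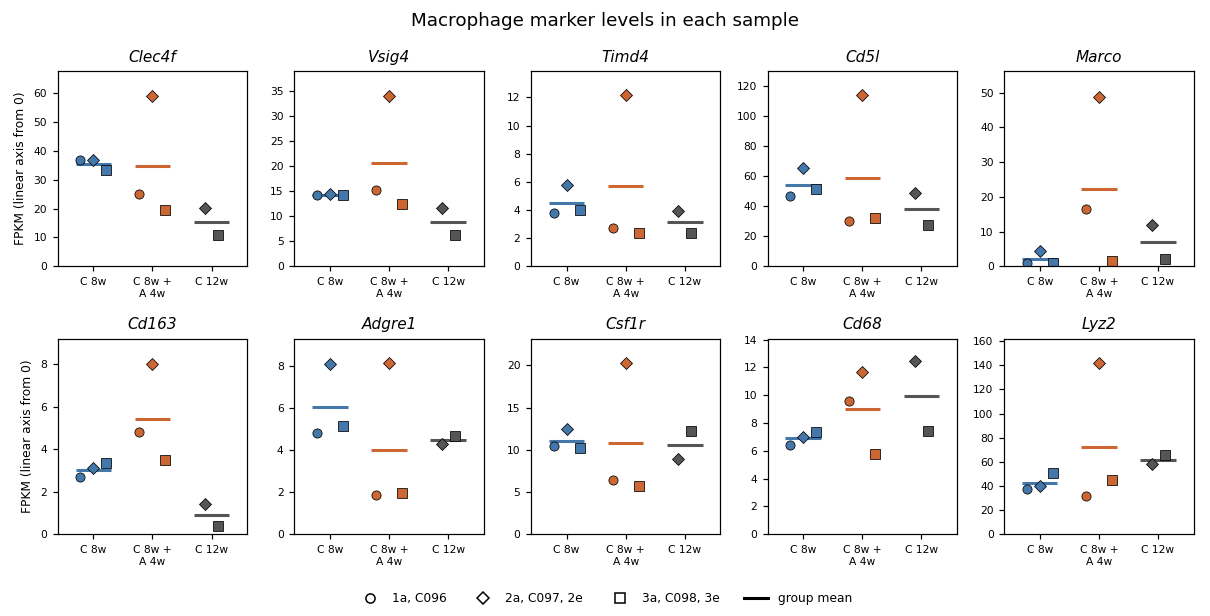
FPKM of the 10 genes in each of the 8 samples on linear axes that start at 0, with 1 panel a gene, 1 symbol a sample and a horizontal line at the group mean (C 8w + A 4w is the SALI group and C 12w the tumors). C097 (orange diamond) is the highest of its group in all 10 panels, and the 3 groups are separate only for Cd163.

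C097 was the highest of the 3 SALI samples for all 10 genes, while it was the highest for 49.5% of the 10244 genes kept. Its FPKM was 4.78 times the mean of C096 and C098 for Timd4, 4.25 times for Adgre1, 3.73 times for Lyz2, 3.66 times for Cd5l and 3.36 times for Csf1r. The ratio was 5.43 for Marco, where C096 was high as well, 2.65 for Clec4f and 2.45 for Vsig4, and it was lowest for Cd163 (1.92) and Cd68 (1.52). On the log2(FPKM + 1) scale the median difference was 1.63 over the 10 genes and 0.079 over all genes kept. Other macrophage genes stood alike. Of 16 other Kupffer cell genes kept, such as the complement C1q chains and Folr2, 13 were highest in C097 (median difference 1.09), and of 16 general phagocyte genes 14 were (1.08). The summed FPKM of the 10 genes was 458 in C097, 144 in C096, 129 in C098 and 140 to 197 in the 5 FT samples.

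Markers of other cells were compared in the same way. All 6 stellate cell markers kept were highest in C097 (median difference 0.55), as were 6 of 7 endothelial markers (0.19), 3 of 7 hepatocyte markers (0.053) and 1 of 4 bile duct markers (-0.081). Lysosomal enzymes, which all liver cells make, had a median difference of 0.029, with 6 of 14 genes highest in C097. None of 10 T and NK cell markers was kept, and their summed FPKM was 0.915 to 1.65 in the SALI group, 2.22 to 2.72 in C 8w and 1.48 to 3.79 in the tumors. The 7 neutrophil markers summed to 8.41 to 10.9, 3.81 to 14.9 and 5.54 to 13.6 in these groups, and the 6 B cell markers to 1.21 to 4.76, 2.88 to 6.59 and 1.63 to 4.49. The part of any of these in the levels of the 10 genes was not tested.

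**Figure D2:**
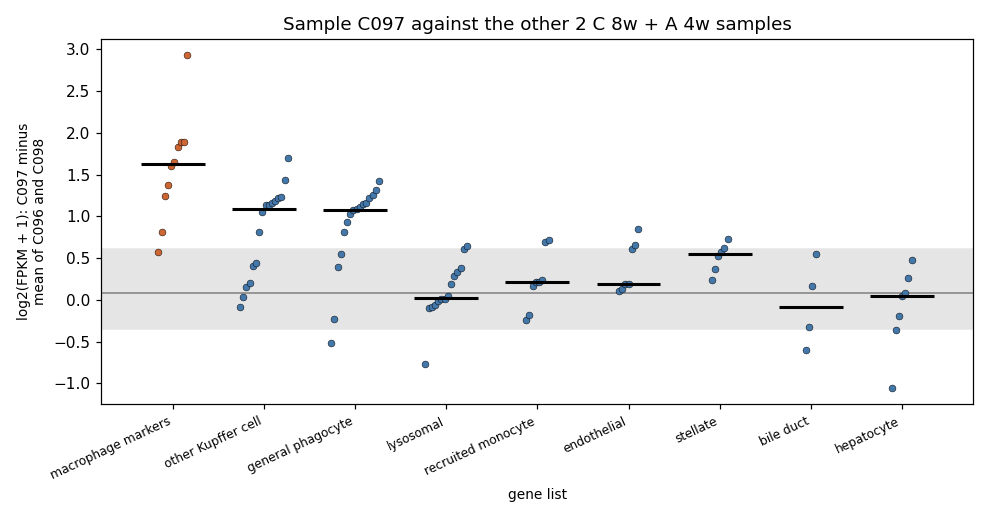
Difference in log2(FPKM + 1) between C097 and the mean of C096 and C098, 1 point a gene, with a black line at the median of each list; the grey band spans the 5th to 95th percentile of all 10244 genes kept and the grey line their median (0.079). The 10 macrophage markers (orange) had a median of 1.63, and the medians of the hepatocyte (0.053) and lysosomal (0.029) lists lay near that of all genes.

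In C 8w, sample 2a took a similar but smaller position. It was highest of 3 for 6 of the 10 genes and for 14 of 16 general phagocyte genes, against 39.9% of all genes kept, with median differences to the mean of 1a and 3a of 0.16 and 0.25 against 0.027. Adgre1, Marco and Timd4 had the clearest gaps, whereas Clec4f and Vsig4 hardly varied within this group.

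The comparison of the SALI group with C 8w sets livers after SALI against livers at the time SALI began. The SALI livers were also taken later and carry codes of the other series. Removal of NTBC, time and code series therefore cannot be told apart in this comparison. None of the 10 genes passed the test in either direction, when 25.3% of the genes kept were called higher and 14.1% lower (limma on log2(FPKM + 1), Benjamini-Hochberg adjusted p under 0.05), and 0 of 10 had an unadjusted p under 0.05. The largest differences were in Marco, 2.20 higher on the log2 scale (SE 1.03, adjusted p = 0.12), and Adgre1, 0.69 lower (log2 fold change -0.69, SE 0.41, adjusted p = 0.214). Cd163 differed by 0.61 (SE 0.27, adjusted p = 0.105), and it was the only gene of the 10 without overlap between the groups (1 higher), where 39% of all genes were higher without overlap and 22.3% lower. The 95% interval of Clec4f ran from -1.06 to 0.66 and that of Csf1r from -1.13 to 0.66, so differences anywhere within these ranges remained compatible with the samples. The median log2 fold change was 0.15 over the 10 genes and 0.12 over all genes kept.

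C097 decided these values. It was singled out as the highest SALI sample for all 10 genes, so leaving it out must lower every value. The calls without C097, here and below, rest on the other 2 SALI samples, chosen after the values were seen. They are no separate evidence of a fall after SALI. Without C097, 3 of the 10 genes passed the test as lower in the SALI group, where 14.4% of all genes were called lower and 20.5% higher. Adgre1 was lower by a log2 fold change of -1.24 (adjusted p = 0.00343), Csf1r by -0.77 (adjusted p = 0.00982) and Cd5l by -0.77 (adjusted p = 0.0460). Timd4 (-0.63, adjusted p = 0.0572) and Clec4f (-0.66, adjusted p = 0.0720) did not pass. No gene of the 10 passed as higher without C097, and Cd163 was then at 0.34 (adjusted p = 0.294). C098 decided Marco, which without that sample was 3.40 higher (adjusted p = 0.0136). C097 and the other 2 samples carry the same labels, and nothing in the labels sets it apart.

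**Figure D3:**
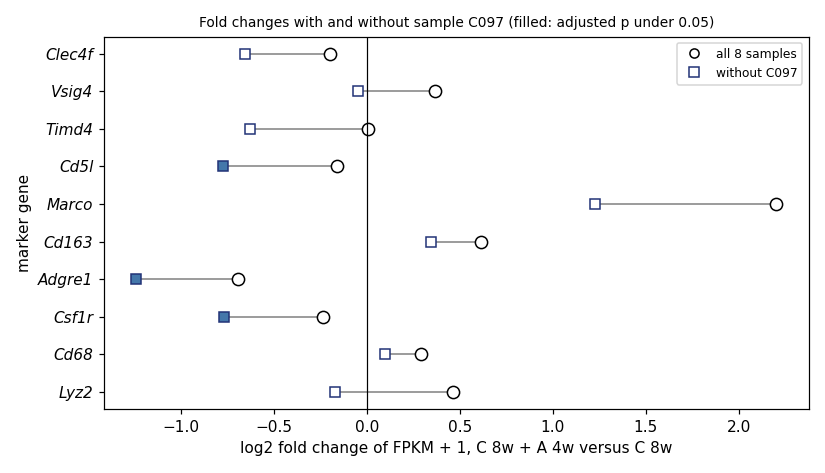
Log2 fold change of FPKM + 1 between the SALI group and C 8w for each of the 10 genes, with all 8 samples (circles) and without C097 (squares), filled where the adjusted p was under 0.05. All 10 values moved down without C097, as they must, since it was the highest of its group for all 10 genes. Only Adgre1, Csf1r and Cd5l then passed the test, as lower, with C097 left out after its values were seen.

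The comparison of the SALI group with the tumors sets SALI against continued MCLI for the same total of 12 weeks, and liver against tumor. Cd163 was the only gene of the 10 called, higher by 1.75 (SE 0.30, adjusted p = 0.00346), when 17.4% of all genes kept were called higher and 15.4% lower. All 3 SALI samples were above both tumors, and the call held with any single sample left out (1.35 to 2.14, largest adjusted p = 0.0153). Vsig4 was 1.04 higher (SE 0.38, adjusted p = 0.0662), also without overlap, and Clec4f 1.01 higher (SE 0.42, adjusted p = 0.0990), and neither passed the test. Of all genes kept, 28.1% were higher without overlap and 24.2% lower. Clec4f and Vsig4 passed when tumor 2e was left out (both 1.43, adjusted p = 0.0454 and 0.0306), and Vsig4 also without C098 (1.32, adjusted p = 0.0405). For the general markers Adgre1, Csf1r, Lyz2 and Cd68 the differences were between -0.36 and -0.075. Without C097, Adgre1 (-0.91, adjusted p = 0.0179), Lyz2 (-0.71, adjusted p = 0.0417) and Csf1r (-0.70, adjusted p = 0.0213) were called lower, as 15.7% of all genes were with 15% higher, and Cd163 stayed higher (1.47, adjusted p = 0.00627).

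The comparison of the tumors with C 8w stays within the FT code series. Cd163 was lower in the tumors by a log2 fold change of -1.13 (SE 0.30, adjusted p = 0.0354), the only gene of the 10 called, when 6.98% of all genes kept were called lower and 12.2% higher. This call and that against the SALI group rest on the same 2 tumors. It was lost without tumor 3e (-0.74, adjusted p = 0.157), where Cd163 was listed at 0.403, without 1a, 2a or 3a (adjusted p = 0.0860, 0.0907 and 0.104), and with no floor on FPKM (adjusted p = 0.0808). Clec4f was lower by -1.21 (SE 0.42, adjusted p = 0.0742) and passed without 2e (-1.63, adjusted p = 0.0321) or without C097, whose spread the fit shares (adjusted p = 0.0190). Adgre1, Clec4f, Vsig4 and Cd163 were lower in both tumors than in all 3 C 8w livers and Lyz2 and Cd68 higher, 4 and 2 of 10 genes, where 19.6% and 34.9% of all genes were. The median log2 fold change was -0.37 over the 10 genes and 0.12 over all genes kept.

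**Figure D4:**
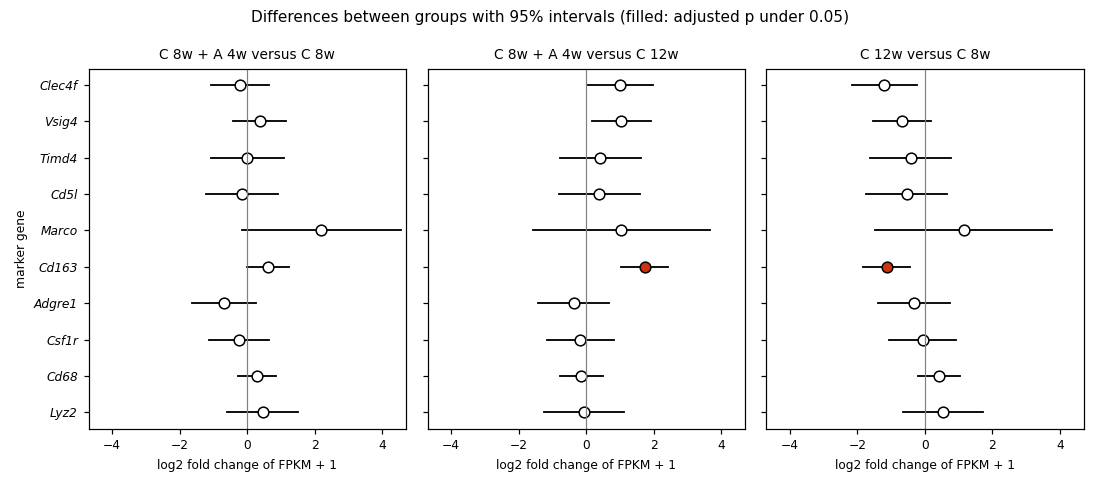
Log2 fold change of FPKM + 1 (point) with its 95% interval from limma (line) for the 10 genes in the 3 comparisons; filled points had an adjusted p under 0.05. Only Cd163 was called, higher in the SALI group than in the tumors and lower in the tumors than in C 8w.

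The shift of all genes is the scale for these values. The median of all genes kept was 0.12 higher in the SALI group than in C 8w and also in the tumors than in C 8w, and scaling samples by their median ratio brought these to 0.0050 and 0.0085. After that scaling the share of calls that were higher went from 64.2% to 49.4% against C 8w, and from 63.6% to 47.4% in the tumors. Scaling to the same summed FPKM moved the median between the SALI group and the tumors from 0.0077 to -0.15, and the share of higher calls from 53.1% to 35.9%. Cd163 stayed on the same side of the threshold in all 3 comparisons under each of these scalings. Timd4 between the SALI group and C 8w was at 0.0046 and turned to -0.12 and -0.065, so it took no direction.

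The 2 tumors differed from each other in these genes. Clec4f, Vsig4, Timd4, Cd5l and Cd68 were 1.87, 1.83, 1.66, 1.76 and 1.68 times as high in 2e as in 3e, Marco 5.93 times and Cd163 3.497 times. Csf1r, Lyz2 and Adgre1 went the other way, at 0.728, 0.882 and 0.923 times. Of the genes common to all macrophages, Cd68 was thus higher in 2e, with the resident genes, and the other 3 were higher in 3e. Tumor 3e also had the higher bile duct markers, a summed FPKM of 339 against 28.2, most of it Spp1 at 311 against 22.2, and Cx3cr1, a receptor of monocyte-derived cells chosen after its values were seen, was at 3.0 in 3e and at 0.0274 to 0.468 in the other samples. Their part in the difference was not tested.

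Dividing each gene by Csf1r within a sample takes out a factor only where it acts equally on both genes. The excess of C097 did not, at 3.36 times for Csf1r and 1.52 (Cd68) to 5.43 times (Marco) over the 10 genes. C097 was the lowest SALI sample for the Cd163, Vsig4, Clec4f and Cd68 ratios and the highest for Timd4 and Adgre1. In C096 and C098, Csf1r was at 6.41 and 5.68, below 10.2 to 12.4 in C 8w, which by itself raises their ratios. Cd163 per Csf1r was 0.257, 0.249 and 0.327 in 1a, 2a and 3a, 0.748, 0.393 and 0.618 in C096, C097 and C098, and 0.158 and 0.0330 in 2e and 3e. The 3 groups stayed apart, and they did so per Adgre1 as well (0.381 to 0.648, 0.978 to 2.56 and 0.0862 to 0.327), where 18.2% of all genes were higher in the SALI group than in C 8w, 8.26% higher than in the tumors and 2.45% lower in the tumors than in C 8w. The higher ratio per Adgre1 was not particular to Cd163, since 8 of the 9 markers divided by Adgre1, all but Clec4f, were higher without overlap in the SALI group than in C 8w. Vsig4 per Csf1r was 1.68 to 2.39 in the SALI group, above 1.17 to 1.39 in C 8w and 0.516 to 1.30 in the tumors. Vsig4 itself overlapped between the SALI group and C 8w, at 15.3 and 12.5 in C096 and C098 against 14.2 to 14.5 in C 8w. With the Csf1r ratio, 9.47% of all genes kept were higher without overlap in the SALI group than in C 8w and 5.99% than in the tumors. Clec4f per Csf1r was 2.91 to 3.92 in the SALI group and 2.96 to 3.52 in C 8w, and it was lower in the tumors, at 2.26 and 0.882, where 9.86% of all genes were lower than C 8w without overlap.

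Adgre1 per Csf1r was 0.292, 0.401 and 0.346 in C096, C097 and C098, below 0.465 to 0.654 in C 8w, where 4.86% of all genes were lower without overlap, and it overlapped with the tumors (0.382 and 0.485). This ratio of 2 general markers was thus lower in all 3 SALI samples, C097 included. Lyz2 per Csf1r was 5.38 and 6.51 in the tumors, above 3.25 to 4.94 in C 8w, where 37% of all genes were higher without overlap. Timd4 and Cd5l per Csf1r, unlike per Adgre1, overlapped between all groups and varied by 3.07 and 2.51 times over the 8 samples, and Marco by 27.3 times. Csf1r enters every one of these ratios, and 14.3% of its sequence is shared with other genes.

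**Figure D5:**
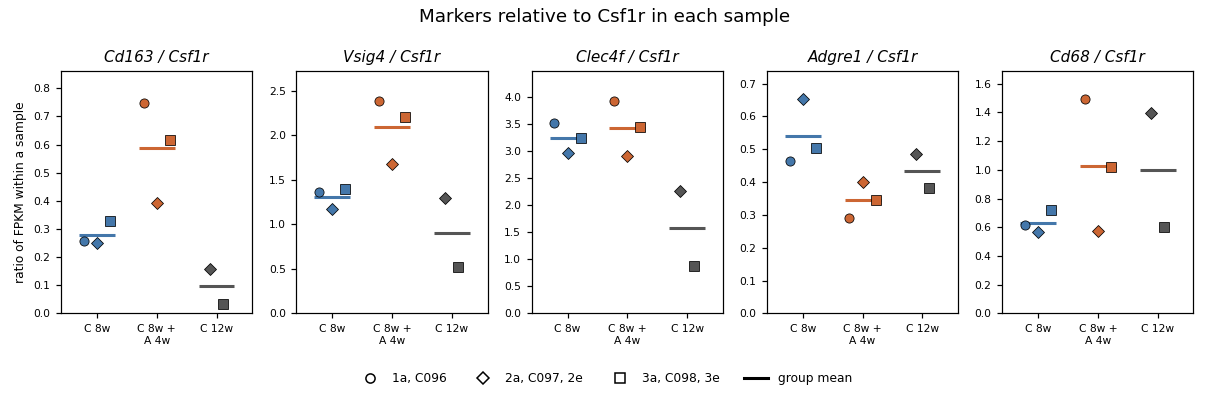
FPKM of 5 genes divided by that of Csf1r in the same sample, on linear axes that start at 0, with 1 symbol a sample and a line at the group mean. The Cd163 ratio separates all 3 groups, the Vsig4 ratio is highest in the 3 SALI samples and the Clec4f ratio lowest in the 2 tumors, while the Cd68 ratio overlaps in all groups.

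Other genes of Kupffer cells moved in both directions. Of 18 listed, 16 were kept, and against C 8w the SALI samples had 3 higher and 1 lower (median log2 fold change 0.12), or 3 higher and 4 lower without C097 (median -0.27), where 25.3% of all genes kept were called higher and 14.1% lower, or 20.5% and 14.4% without C097. Hmox1, the enzyme that breaks down heme and is also made by stressed hepatocytes, rose by 1.98 (SE 0.19, adjusted p = 0.000116), from 47.3 to 60.7 in C 8w to 167, 234 and 245 in C096, C097 and C098. Clec1b, the receptor CLEC-2, was higher by 0.76 (adjusted p = 0.0144) and Cd38, an enzyme that consumes NAD, by 0.52 (adjusted p = 0.0115), while Nr1h3, the lipid sensor LXR alpha that helps to set Kupffer cell identity, was lower (-0.97, adjusted p = 0.0146). These last 3 calls were each lost without sample 1a (adjusted p = 0.0579, 0.0556 and 0.0547), and those of Clec1b and Cd38 also with quantile normalization (adjusted p = 0.0576 and 0.0584). Clec1b was also lost without 2a (adjusted p = 0.0553), and Nr1h3 without C096 or C098 (adjusted p = 0.0527 and 0.0534). Clec1b was at 19.2, 18.1 and 16.02 in C096, C097 and C098, and so did not share the high level of C097.

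Against the tumors, 5 of the 16 were higher in the SALI group and 0 lower (median 0.51, all genes 0.0077), and without C097 the count was 5 and 1, with Nr1h3 the gene called lower and a median of 0.16. Of all genes kept, 17.4% were called higher and 15.4% lower, or 15% and 15.7% without C097. Clec1b was higher by 2.01 (SE 0.21, adjusted p = 0.000291) and Cd38 by 0.85 (SE 0.14, adjusted p = 0.00250), and both calls held with any single sample left out. Fcna, a secreted ficolin of Kupffer cells, was higher by 1.47 (adjusted p = 0.0235) but not without 3e (0.97, adjusted p = 0.124), with no floor on FPKM (adjusted p = 0.0555) or with only the 2 groups fitted (adjusted p = 0.0633). Hmox1 was higher by 0.87 (adjusted p = 0.0145), a call lost without 2e (0.67, adjusted p = 0.0542), with total scaling, with quantile normalization and with only the 2 groups fitted (adjusted p = 0.0582, 0.0763 and 0.0509). In the tumors against C 8w, 1 was higher and 3 were lower (median -0.35), when 12.2% of all genes were called higher and 6.98% lower. Hmox1 rose by 1.11 (SE 0.21, adjusted p = 0.0115), and Clec1b (-1.25, SE 0.21, adjusted p = 0.00797) and Mrc1, the mannose receptor (-0.89, SE 0.17, adjusted p = 0.0112), fell, each with any single sample left out. Fcna was at 47.7, 32.1 and 34.9 in C 8w and at 17.0 and 8.05 in the tumors (-1.60, adjusted p = 0.0290), a call lost without 3e, 1a, 2a or 3a (adjusted p = 0.0611 to 0.124) and with no floor (adjusted p = 0.0669). Clec1b shares 3.23% of its sequence with other genes.

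Of 20 general phagocyte genes, 16 were kept, and 1 was higher and 1 lower in the SALI group than in C 8w (median -0.10), against 25.3% and 14.1% of all genes. Cd14, the co-receptor for bacterial lipopolysaccharide, which injured hepatocytes also make, was at 45.9, 26.3 and 31.7 in C096, C097 and C098 and at 9.30 to 11.2 in C 8w (1.63, SE 0.24, adjusted p = 0.00130). Fcer1g, the signaling chain of several Fc receptors, was at 1.48, 2.98 and 2.0 against 4.60 to 6.25 (-1.09, SE 0.19, adjusted p = 0.00273), so it was lower in C097 too. Without C097, 7 of the 16 were called lower, among them Fcer1g, Tyrobp, Laptm5, Cybb, Cd53 and Ptprc, which were named after their values were seen, and Cd14 was the 1 called higher (median -0.39, all genes 0.089), against 14.4% of all genes called lower and 20.5% higher. Tyrobp, the partner chain of Trem2 and other receptors, was at 4.10 and 2.97 in C096 and C098, 8.95 in C097 and 5.57 to 9.81 in C 8w.

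Against the tumors, 3 of the 16 were higher in the SALI group and 1 lower (median -0.15), and without C097 the count was 3 and 7, against 17.4% and 15.4% of all genes, or 15% and 15.7%. Cd14 was higher by 1.69 (SE 0.27, adjusted p = 0.00244), Mertk, a receptor for dying cells, by 0.96 (SE 0.17, adjusted p = 0.00413), and Fcer1g was lower (-1.24, SE 0.21, adjusted p = 0.00309), each with any single sample left out. Fcgr2b, the inhibitory Fc receptor also found on liver endothelium, was at 8.46, 8.18 and 11.3 in C096, C097 and C098, 11.4 to 12.1 in C 8w and 6.68 and 2.38 in the tumors. It was called higher against the tumors (1.00, adjusted p = 0.0329) and lower in the tumors than in C 8w (-1.34, adjusted p = 0.0194). The first call was lost without any 1 of 3e, 1a, 2a, 3a, C096 or C098 (adjusted p = 0.0549 to 0.118), and with no floor, median-ratio scaling, quantile normalization or only the 2 groups fitted (adjusted p = 0.0507 to 0.0947). The second was lost without 1a, 2a or 3a (adjusted p = 0.0585 to 0.0671). Mertk was lower in the tumors than in C 8w (-0.83, adjusted p = 0.0161), lost without 3e, 2a or 3a (adjusted p = 0.0545 to 0.0605), and Fcgr2b and Mertk were the 2 of 16 called lower there with 0 higher (median 0.052). Of all genes kept, 6.98% were called lower in the tumors than in C 8w and 12.2% higher (median 0.12). Of 7 endothelial markers, 4 were called lower in the tumors than in C 8w. In the SALI group against C 8w, 4 of the 7 were called lower and 1 higher, against 14.1% and 25.3% of all genes. Fcgr2b and Mertk were not called there, although Fcgr2b was lower in every SALI sample than in every C 8w sample (-0.33, adjusted p = 0.348). Against the tumors, 1 of the 7 was called higher in the SALI group. Their summed FPKM was 53.9 to 57.9 in C 8w, 26.0 to 44.1 in the SALI group and 26.9 to 33.4 in the tumors. Their part in the values of Fcgr2b was not tested.

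All 14 genes of lysosomal enzymes and membrane proteins were kept. In the SALI group against C 8w, 2 were lower and 0 higher (median -0.051), against 14.1% and 25.3% of all genes. The protease gene Ctsh was among the lower ones (-0.45, adjusted p = 0.0144), but not without 1a (adjusted p = 0.0671). Against the tumors, the protease gene Ctsd (0.75, SE 0.18, adjusted p = 0.0133) and Hexa (0.56, adjusted p = 0.0234) were higher and 0 lower (median 0.042), and Hexa was lost without 3e (adjusted p = 0.0841) and with total scaling (adjusted p = 0.112). Of all genes kept, 17.4% were called higher against the tumors and 15.4% lower. With only the 2 groups fitted neither Ctsd nor Hexa passed (adjusted p = 0.0549 and 0.0848). No lysosomal gene was called in the tumors against C 8w (median -0.13), where 12.2% of all genes were called higher and 6.98% lower. Ctsd and Hexa share 32.4% and 10.6% of their sequence with other genes.

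Of 8 transcription factors of the lineage, 4 were kept, and Irf8 was listed at 0 in all 8 samples. Maf, a factor of macrophage differentiation, was lower in the SALI group than in C 8w (-0.41, adjusted p = 0.0463), a call lost without any 1 of 1a, 2a, 3a, C096 or C098 (adjusted p = 0.0928 to 0.135), and with total scaling, no floor or a floor of 0.1 (adjusted p = 0.0568 to 0.0810). Cebpb, a factor that hepatocytes express as well, was at 49.7 to 63.9 in C 8w, 49.6 to 81.5 in the SALI group and 26.7 and 18.4 in the tumors. It was lower in the tumors than in C 8w (-1.26, SE 0.24, adjusted p = 0.0112) and higher in the SALI group than in the tumors (1.44, SE 0.24, adjusted p = 0.00270), each with any single sample left out, and 18.1% of its sequence is shared.

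The ligands of Csf1r were low in all samples. Csf1 had an FPKM of 1.15 to 1.48 in C 8w, 1.46, 2.28 and 1.34 in C096, C097 and C098, and 1.86 and 4.61 in 2e and 3e, so tumor 3e was the highest. Il34 was between 0.722 and 1.59 in the 8 samples, and the groups overlapped. None of the 4 genes of this list that were kept was called in any comparison, where 6.98% to 25.3% of all genes were called in each direction. Csf1 in the tumors against C 8w was at 0.78 (adjusted p = 0.0739), or 1.27 without 2e. In the SALI group against the tumors Csf1 was at -0.59 (adjusted p = 0.129), or -1.08 without 2e.

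Genes linked with recruited monocytes and scar macrophages were mostly low, with 8 of 14 kept. Against C 8w, 2 were higher in the SALI group and 0 lower (median 0.54), against 25.3% and 14.1% of all genes. Lgals3, galectin-3, was at 27.5, 22.1 and 25.1 in C096, C097 and C098 and at 1.53 to 3.49 in C 8w (2.88, SE 0.40, adjusted p = 0.000938), and the tetraspanin Cd9 at 119 to 137 against 23.6 to 35.4 (2.18, SE 0.16, adjusted p = 2.57e-05). Neither was higher in C097 than in both other samples, unlike the 10 macrophage markers, and both genes are also made by bile duct cells and injured hepatocytes. Cd9 was higher in the tumors than in C 8w too (2.11, SE 0.18, adjusted p = 0.000963), each of these calls with any single sample left out. Spp1, osteopontin, was at 22.2 and 311 in the tumors and 8.26 to 11.8 in C 8w (3.03, adjusted p = 0.0410), and the call was lost without any 1 of the 6 samples other than the tumors (adjusted p = 0.0572 to 0.115), and with no floor, quantile normalization or only the 2 groups fitted (adjusted p = 0.0529 to 0.0937). Lgals3 was higher in the SALI group than in the tumors (1.43, adjusted p = 0.0399), a call lost without any 1 of 3e, 2a, 3a, C096, C097 or C098 (adjusted p = 0.0552 to 0.176), and with a pseudocount of 0.1, no floor, median-ratio scaling, quantile normalization or only the 2 groups fitted (adjusted p = 0.0510 to 0.0860). Epcam of the bile duct list was higher in the SALI group than in C 8w, at 3.07 to 5.99 against 0.244 to 0.888, and its cells' part in Lgals3 and Cd9 was not tested. Cd9 and Spp1 share 14.4% and 11.6% of their sequence with other genes.

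The genes whose pattern was most like that of Csf1r over the 8 samples, by Pearson's r of log2(FPKM + 1), were Axl, a receptor for dying cells (r = 0.947), Adgre4, a relative of Adgre1 (0.935), Cybb, a subunit of the phagocyte oxidase (0.934), Selenoi, a phospholipid enzyme (0.932), and Tmsb4x, an actin-binding peptide (0.929). Without C097 their r was 0.873 to 0.916. Adgre1 ranked 15 (0.914), and Clec4f had an r of 0.498 with Csf1r, or 0.099 without C097. The genes most like Clec4f were C1d, a cofactor of RNA decay (0.971), Tbx3, a transcription factor (0.957), Adh4, an alcohol dehydrogenase of hepatocytes (0.955), Thap12 (0.953) and Fcna (0.949), with r of 0.926 to 0.972 without C097. Vsig4 ranked 17 (0.914), and Cd163 had an r of 0.828 with Clec4f and 0.137 with Csf1r, or 0.724 and -0.546 without C097. All points share their group, so these values describe 8 samples in 3 groups and carry no test.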

How the data were processed

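The RNA of 8 Fah-/- livers or tumors was measured, and samples were grouped by the treatment their labels give, as C 8w (3), C 8w + A 4w (3, the SALI group) and C 12w (2). FPKM was used as the authors deposited it, that is, fragments divided by the length of the gene and the mapped total of the sample. The submitters' processing notes name Bowtie 0.12.2 and the build mm8, with no role for either, and the quantifier and annotation are not given in the sources used here. FPKM holds no counts, so depth and counting error are unknown, and each comparison was set against the spread between samples.

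Of 22504 genes, 22314 were paired with a symbol, and all 147 listed genes matched. The 10244 genes that reached an FPKM of 1 in 4 or more samples were compared as log2(FPKM + 1), which understates the change of low genes, with limma 3.58.1 in R 4.3.3 (lmFit and eBayes with a trend) in 1 fit of all 8 samples. Tests were two-sided, with Benjamini-Hochberg adjustment over all genes kept and a threshold of 0.05. Groups do not overlap where every sample of one lies above every sample of the other. The sequence a gene shares was measured as the percentage of 50-base windows in its GENCODE M21 transcripts that another gene also holds (Python 3.11.15), and the authors' annotation may differ. The relative value of 1 read was read from the most frequent ratio of the smallest nonzero values of 2 samples.

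The genes and lists were chosen with earlier results of these data known. Named were the 10 markers, in each macrophage list the genes called without overlap between groups (at most 4 higher and 4 lower by size of the log2 fold change), Csf1, Il34 and Lyz1, and the 5 genes most like Csf1r and Clec4f. Alternatives were each sample left out, a replicate block, a pseudocount of 0.1, no floor or another, scaling of samples by median ratio, by total or by quantiles, no trend in eBayes, fits of the 2 groups alone, a log2 limit of 1 and genes with 2% or less shared sequence. The crossed pairing and the counts of lists without C097 were chosen after seeing the data. The test was checked on simulated data. Values of some listed genes are not reported here.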

Additional observations from a re-analysis of the deposited data

How the results depend on the processing

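In the SALI group against C 8w and against C 12w, the counts of the 10 macrophage markers called were the same under every alternative that kept all samples. Leaving out single samples gave 0 to 1 called higher and 0 to 3 called lower against C 8w, and 1 to 3 higher and 0 to 3 lower against C 12w. For C 12w against C 8w, 1 marker was called lower, and single samples left out gave 0 to 2. With no floor the count was 0 (Cd163, adjusted p = 0.0808), and with only the 2 groups compared it was 2, with Clec4f (adjusted p = 0.0337). Numbers 2 and 3 occur in both C 8w and C 12w, and nothing in the labels ties samples of the same number. A fit of these 4 samples with the number as a replicate block also called 0 markers lower (Cd163 at -1.20, adjusted p = 0.0886) and 252 of all genes. Under the block the calls of Cebpb, Clec1b, Fcgr2b, Fcna, Hmox1, Mertk, Mrc1 and Spp1 were lost as well (adjusted p = 0.0591 to 0.116). The same-numbered samples deviated with a correlation of -0.189, and with the numbers crossed 0 markers and 16 genes were called.

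Among the 10 markers, Csf1 and Il34, directions turned only in values that did not pass the test. Timd4 against C 8w was at -0.0490 with a pseudocount of 0.1, -0.12 with median-ratio, -0.065 with total and -0.16 with quantile scaling, and in C 12w against C 8w Csf1r was at 0.024 with total and Il34 at -0.020 with quantile scaling. With single samples left out, the log2 fold changes of the SALI group against C 8w ran from -0.66 to 0.12 for Clec4f, -0.046 to 0.64 for Vsig4, -0.63 to 0.36 for Timd4, -0.77 to 0.17 for Cd5l, -0.17 to 0.90 for Lyz2 and -0.77 to 0.069 for Csf1r. Against C 12w they ran from -0.21 to 0.78 for Timd4, -0.23 to 0.78 for Cd5l, -0.71 to 0.36 for Lyz2, -0.48 to 0.20 for Cd68 and -0.70 to 0.13 for Csf1r, and in C 12w against C 8w from -0.27 to 0.14 for Csf1r and -0.036 to 0.24 for Il34. The number of reads behind these values is unknown, and 2 or 3 samples a group limit their precision.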
